A study of Mus musculus with 3 samples.

Results

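The genes described here are 10 genes of prolactin signaling and of alveolar identity in the mammary epithelium: Prlr, Jak2, Stat5a, Stat5b, Cish, Socs2, Elf5, Gata3, Nfib and Ehf. They were picked by function, as the receptor, kinase and Stat5 factors of the prolactin pathway, its feedback targets and alveolar transcription factors, and they are 10 of the 21743 genes and transcripts tested. All 10 had at least 1 probe on the array and all 10 passed the filter on dim probes.

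Primary cultures of mammary tumor cells from 3 MMTV-PyMT mice, called tumors 1, 2 and 3 here, were measured with and without RL, the ligand of the receptor RANK. The study's question for these arrays was which genes RL changes in the tumor cells. Each of 3 Agilent arrays held RNA of the RL culture and of the control culture of 1 tumor in different dyes, RL in Cy3 on the arrays of tumors 1 and 3 and in Cy5 on the array of tumor 2. There were thus 3 RL cultures and 3 control cultures, and 1 slide, scanned once, held the arrays. In these mice the MMTV promoter drives the PyMT oncogene in mammary epithelium, the labels give no further allele, strain, age or sex. The methods name FVB/N for the stock and C57BL/6 for the mice bred from it. They take cells for such cultures from transplants of tumors with or without RANK and do not say which were used here, while the labels call these primary tumor cultures. Both kinds of culture were grown, in the methods, on matrigel in DMEM F12 with serum, cholera toxin, insulin and EGF. No prolactin is named there. The paper's data statement names another series for its preclinical arrays, and these arrays were matched to its methods by their labels. RL was given for 24 h; the labels put its dose at 1000 µg/ml and the methods at 1 µg/ml.

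Prolactin binds Prlr at the cell surface, which activates the kinase Jak2, and Jak2 phosphorylates Stat5a and Stat5b. Phosphorylated Stat5 enters the nucleus, where it turns on milk genes, and it also turns on Cish and Socs2, whose proteins dampen the signal. Elf5 is an alveolar factor that works with Stat5, Gata3 holds luminal cells in their identity, Nfib binds milk gene promoters beside Stat5, and Ehf is an epithelial factor of the same ETS family as Elf5. In pregnancy, RANK signaling expands the alveolar epithelium, and an excess of it is known to hold back milk secretion. Arrays measure RNA only, so phosphorylation of Jak2 or Stat5 was not measured.

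Stat5 binds the letters TTCNNNGAA, which read the same on both strands. Promoters of 300 bases, from 250 before to 50 after the start of the gene, were taken from RefSeq on GRCm38.p6. The promoter set used here held 12 promoters for 7 of the 10 genes. It had no entry for Socs2, Nfib and Ehf, which is a gap of this set and not of the annotation. The motif was in 2 of these 12 promoters (16.7%), against 2726 of all 32851 promoters (8.3%), 4 of 7 promoters of milk genes (57.1%), 1 of 26 of other JAK-STAT genes (3.85%) and 3 of 19 of Stat5 targets outside milk (15.8%). The promoter of Cish, at chr9:107296409-107296708 on the + strand, is shown because it holds the motif at bases 251 to 259 and again at bases 262 to 270, and because Cish had the largest mean ratio of the 10 genes, though it passed no adjusted threshold over the 3 arrays. The promoter of the milk gene Csn2, at chr5:87699376-87699675 on the - strand, is set beside it as a milk promoter with the motif, at bases 158 to 166. Capitals mark the motif, and a match is a description, not a sign of binding.
Cish: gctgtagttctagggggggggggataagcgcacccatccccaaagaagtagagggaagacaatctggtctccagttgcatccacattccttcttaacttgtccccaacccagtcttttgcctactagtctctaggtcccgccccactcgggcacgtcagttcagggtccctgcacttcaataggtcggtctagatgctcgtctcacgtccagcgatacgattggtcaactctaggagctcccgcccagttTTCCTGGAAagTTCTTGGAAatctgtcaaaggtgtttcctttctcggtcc
Csn2: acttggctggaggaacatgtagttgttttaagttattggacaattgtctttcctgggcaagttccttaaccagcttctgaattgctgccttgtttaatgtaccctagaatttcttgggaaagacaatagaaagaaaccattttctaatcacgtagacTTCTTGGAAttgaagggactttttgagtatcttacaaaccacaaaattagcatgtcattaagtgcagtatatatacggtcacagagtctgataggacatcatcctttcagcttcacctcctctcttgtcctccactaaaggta
The other promoter with the motif was 1 of the 3 of Prlr, at chr15:10223656-10223955 on the + strand, where it reads TTCTAGGAA at bases 141 to 149.

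Values are log2 ratios of RL over control within an array, 1 per tumor, so 0 means no difference and 1 means a doubling. Each ratio rests on spots that were bright: the 10 genes had 19 probes on 28 spots per array, and all 28 were well above background in every channel. Signal over local background ran from 5.90 for the dimmer probe of Prlr to 908 for Nfib. The number of arrays limits the precision. Means are given with the SD over the 3 tumors, and standard errors and 95% intervals are limma's moderated ones, which borrow variance from all genes. By limma, with p-values adjusted over all 21743 genes and a threshold of 0.05, 0 of the 10 genes were called, against 1 gene higher (0.0046%) and 5 lower (0.023%) among all genes. At an unadjusted p under 0.05, limma gave 2 of the 10, Jak2 and Cish, both higher, against 3.5% of all genes higher and 3.58% lower. A limma fit with a term for the dye called 0 of the 10 (0.566% of all genes higher, 0.745% lower), and a rank product with a proportion of false positives under 0.05 also called 0 (0.17% higher, 0.235% lower).

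Jak2, Cish and Ehf were above 0 on all 3 arrays, which 14.1% of all genes were, and Elf5 was below 0 on all 3, which 13.5% were. The other 6 genes were on both sides of 0. The median of the 10 mean ratios was −0.00037, beside −0.0018 over all genes, and the means ran from −0.14 for Elf5 to 0.27 for Cish. With median centering of each array in place of loess, all genes had a median of −0.09 and the 10 genes of −0.14. Under it no member was above 0 on all 3 arrays and none below.

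**Figure D1:**
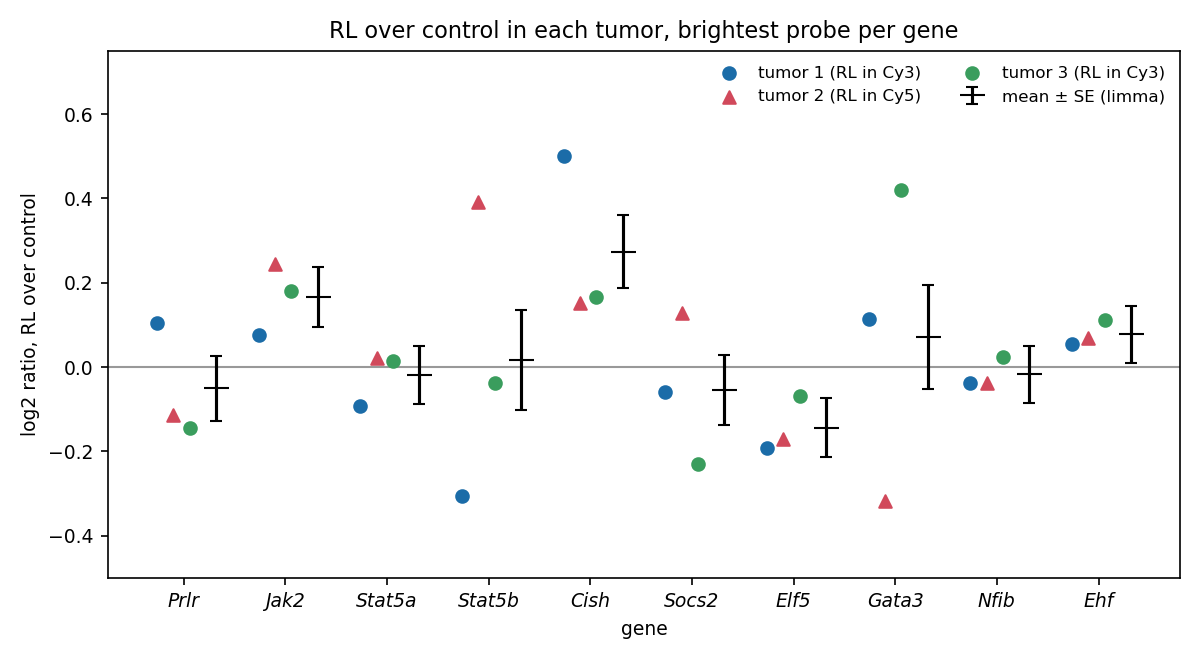
Log2 ratio of RL over control for the 10 genes (y axis, log2), with 1 point per tumor and the mean of 3 tumors with limma's moderated standard error. Cish has the highest mean (0.27) and Elf5 the lowest (−0.14); the tumors of Stat5b and of Gata3 lie on opposite sides of 0.

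Prlr encodes the prolactin receptor. Its log2 ratios in tumors 1, 2 and 3 were 0.11, −0.11 and −0.14, a mean of −0.05 ± 0.14 (SD, n = 3 tumors). A dimmer probe of Prlr gave −0.09, −0.11 and −0.15. The probes thus differed in sign in tumor 1 and gave like values in tumors 2 and 3.

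Jak2, the kinase bound to the receptor, had normalized log2 intensities of 10.50, 10.51 and 10.31 in the control cultures of tumors 1, 2 and 3 and of 10.58, 10.75 and 10.49 in their RL cultures. The RL culture was the higher in each tumor, by 0.07, 0.24 and 0.18, with the smallest step in tumor 1. The mean ratio was 0.17 ± 0.09 (SD, n = 3; moderated SE 0.07, 95% interval 0.0051 to 0.33), and limma's adjusted p was 0.7. With the dye term the ratio was 0.19, adjusted p 0.338. With median centering it was 0.048, and Jak2 was no longer above 0 on all 3 arrays. The levels of control and RL cultures overlapped between tumors.

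Stat5a had ratios of −0.09, 0.02 and 0.01, a mean of −0.02 ± 0.06 (SD, n = 3), with a moderated 95% interval of −0.18 to 0.14. Stat5b, its close relative, spread more widely. Tumors 1, 2 and 3 gave ratios of −0.31, 0.39 and −0.04 at its brighter probe, while its other probe gave −0.02, −0.16 and −0.06. In tumor 2 the probes of Stat5b therefore pointed in opposite directions. The brighter probe had a mean of 0.02 ± 0.35 (SD, n = 3), and its mean turned to −0.17 without tumor 2. The mean over both probes was −0.03.

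Cish encodes a SOCS family protein that binds the receptor and competes with Stat5 for it, and a rise in its RNA is a common readout of Stat5 activity. It has 1 probe on 1 spot. In tumor 1 the spot's median intensity was 676.5 in the control channel (Cy5) and 513.5 in the RL channel (Cy3), over backgrounds of 70 and 32. In tumor 2 it was 739.5 in the control channel (Cy3) and 1568.5 in the RL channel (Cy5), and in tumor 3 it was 1212 and 761.5. Raw channels differ by dye, so only normalized values show the change. Normalized log2 intensities were 9.04, 10.05 and 9.79 in the control cultures of tumors 1, 2 and 3 and 9.53, 10.20 and 9.95 in the RL cultures. RL cultures were thus higher in all 3 tumors, by 0.50, 0.15 and 0.17, and most in tumor 1, where the control level was lowest. Ratio and control level come from the same spot, so a high ratio goes with a low control level by construction. Under median centering Cish was no longer above 0 on all 3 arrays. The levels of the groups overlapped across tumors.

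The mean ratio of Cish was 0.27 ± 0.20 (SD, n = 3; moderated SE 0.09, 95% interval 0.08 to 0.47), or 1.21-fold, which ranked 198 from the highest of 21743 genes. Limma's adjusted p was 0.535, and 0.149 with the dye term, where the ratio was 0.24. Without tumor 2 the ratio was 0.33 with a limma adjusted p of 0.0197, but both arrays left then have RL in Cy3, so RL and dye cannot be told apart. Without tumor 1 it was 0.16 and without tumor 3 it was 0.33, and the adjusted p of Cish by limma ranged from 0.0197 to 1 over the alternatives.

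Socs2, the other feedback gene, had 3 probes. Its brightest gave ratios of −0.06, 0.13 and −0.23, a mean of −0.05 ± 0.18 (SD, n = 3). Another is spotted 10 times on each array and shows how well a ratio repeats. Over its 10 spots it gave −0.23 ± 0.06 (SD) in tumor 1, with a range of −0.31 to −0.13. In tumor 2 it gave 0.18 ± 0.08 (SD, range 0.10 to 0.37) and in tumor 3 −0.19 ± 0.06 (SD, range −0.31 to −0.12). The spots of 1 array did not overlap 0 in any tumor, yet the sign in tumor 2 was opposite to that in tumors 1 and 3. The remaining probe of Socs2 gave −0.10, −0.07 and −0.17. Spots are repeats of 1 hybridization and not replicates of the treatment. Across the 399 probes spotted 10 times, the median SD between spots was 0.0663, 0.0679 and 0.0701 in tumors 1, 2 and 3, which covers noise within an array only.

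**Figure D2:**
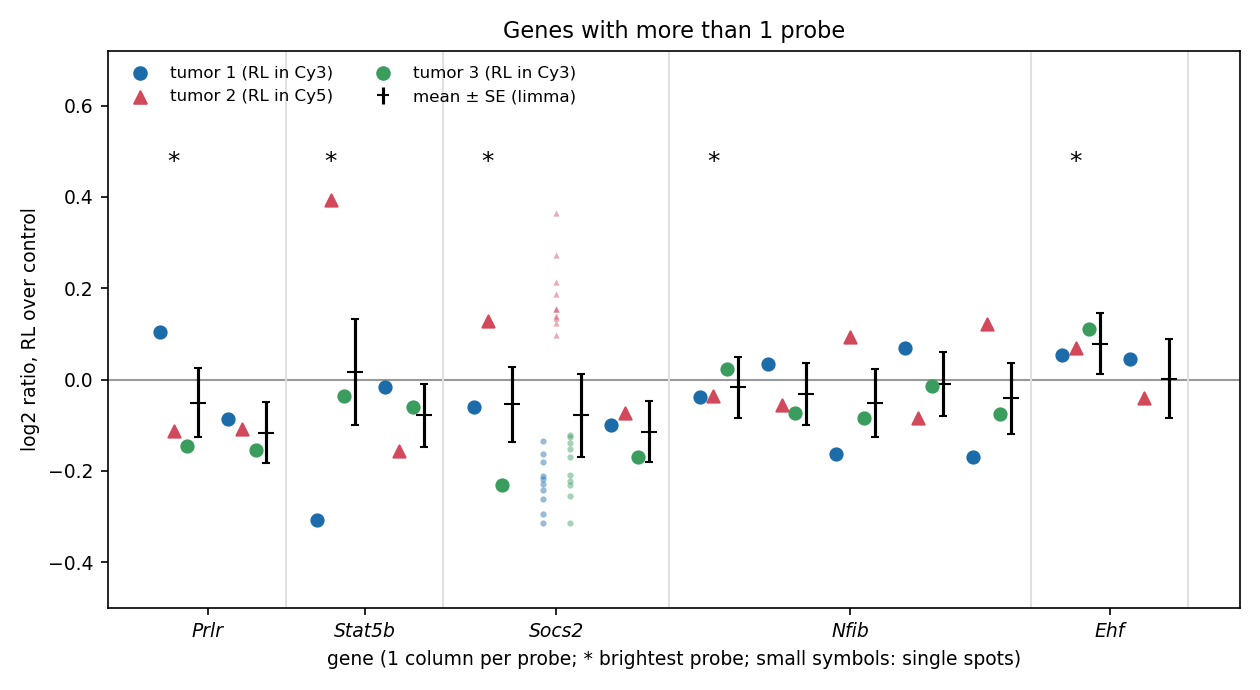
Log2 ratio of RL over control (log2) for each probe of the 5 genes with more than 1 probe, with 1 symbol per tumor, small symbols for single spots, and the mean with limma's moderated standard error. In tumor 2 the probes of Stat5b lie at 0.39 and −0.16, and those of Nfib between −0.08 and 0.12.

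Fitted probe by probe over 29431 probes, limma called 0 of the 19 probes, against 1 probe higher (0.0034%) and 8 lower (0.0272%) among all probes. The 5 genes with several probes had probe means that lay 0.04 (Nfib) to 0.09 (Stat5b) apart. Within tumors the 5 probes of Nfib also differed in sign, from −0.17 to 0.07 in tumor 1, −0.08 to 0.12 in tumor 2 and −0.08 to 0.02 in tumor 3.

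Elf5 drives alveolar differentiation. Its normalized log2 intensities were 14.50, 13.62 and 13.42 in the control cultures and 14.31, 13.45 and 13.35 in the RL cultures of tumors 1, 2 and 3. The RL culture was lower in each tumor, with ratios of −0.19, −0.17 and −0.07. The mean was −0.14 ± 0.07 (SD, n = 3; moderated SE 0.07, 95% interval −0.30 to 0.01), with a limma adjusted p of 0.738, and −0.15 with the dye term. Without background correction or with median centering, Elf5 no longer lay below 0 on all 3 arrays. Its mean was −0.31 with median centering.

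Gata3, the luminal factor, had ratios of 0.11, −0.32 and 0.42, a mean of 0.07 ± 0.37 (SD, n = 3). It was lower with RL in tumor 2 and higher in the others, and the mean turned to −0.03 with the dye term, −0.08 with median centering and −0.10 without tumor 3. Nfib gave −0.04, −0.04 and 0.02, a mean of −0.02 ± 0.04 (SD), and its sign changed under 3 alternatives, all with values near 0. Ehf gave 0.05, 0.07 and 0.11, a mean of 0.08 ± 0.03 (SD), and turned to −0.08 under median centering. The dimmer probe of Ehf gave 0.04 in tumor 1 and −0.04 in tumor 2, and its spot in tumor 3 was left out as an outlier.

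Only the array of tumor 2 has RL in Cy5, so what the dye does and what is particular to tumor 2 cannot be told apart. Across 21721 genes, which are not independent replicates, the ratios of tumors 1 and 3 had a Pearson's r of 0.453. With tumor 2 it was −0.112 for tumor 1 and −0.108 for tumor 3. The limma fit with a dye term gave a dye effect, Cy5 over Cy3, past an adjusted p of 0.05 for 2 of the 10 genes, against 2.78% of all genes. For the brighter probe of Stat5b it was 0.28, adjusted p 0.0333, and for Gata3 it was −0.29, adjusted p 0.0278. The other probe of Stat5b had a dye effect of −0.06, adjusted p 0.816, and an RL ratio of −0.10 with the dye term, both opposite in sign to those of the brighter probe. With these 3 arrays the dye effect is computed from tumor 2 against the mean of tumors 1 and 3. It thus only restates that Gata3 and the brighter probe of Stat5b had opposite signs there by the widest margin. The 10-spot probe of Socs2 had a dye effect of 0.20, adjusted p 0.186. With the dye term, the RL ratio was 0.11 for the brighter probe of Stat5b, −0.07 for Prlr, −0.0092 for Stat5a, −0.0086 for Socs2, −0.02 for Nfib and 0.08 for Ehf.

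**Figure D3:**
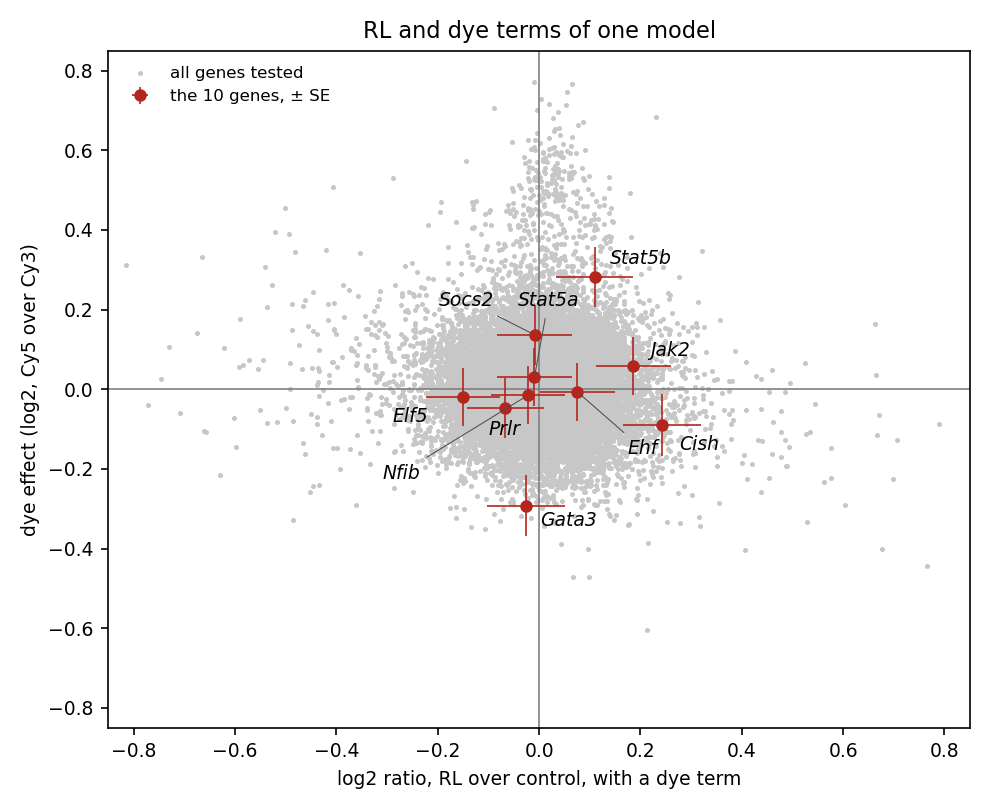
RL over control (x axis, log2) against the dye effect, Cy5 over Cy3 (y axis, log2), from the limma fit with a dye term, for all genes in gray and the 10 genes named; genes beyond the axis limits are not drawn. Stat5b, drawn at its brighter probe (0.28; the other probe is at −0.06 and not drawn), and Gata3 (−0.29) lie far from 0 on the dye axis, and Cish (0.24) lies farthest to the right of the 10.

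Several of the 10 genes differed more between tumors than between the cultures of a tumor. This compares normalized intensities of 1 gene across arrays, with 1 control culture per tumor and no test, and the control of tumor 2 is in Cy3 while those of tumors 1 and 3 are in Cy5. A difference of 1.5-fold was taken as the threshold after the values were seen. Stat5a had 12.05, 11.09 and 10.81 in the control cultures of tumors 1, 2 and 3. Ehf was 13.55, 12.51 and 12.29, and Stat5b was 11.91, 11.12 and 11.16. Socs2 was 11.79, 11.11 and 11.01. With Elf5, these 5 genes were over 1.5-fold higher in the control culture of tumor 1 than in both others, as 3.65% of all genes were.

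Cish went the other way, being the only member over 1.5-fold lower there (2.5% of all genes). The other 4 genes differed less between tumors in the main processing: Prlr was 11.84, 11.76 and 11.57, Gata3 was 13.30, 13.02 and 12.78, and Nfib was 15.37, 15.32 and 14.87. In the RL cultures, Stat5a, Elf5 and Ehf were over 1.5-fold higher in tumor 1 (3.02% of all genes) and 0 of the 10 were lower (2.35%). Between tumors 1 and 3, which share the dye order, Stat5a was 2.37-fold higher in tumor 1 in the control cultures, a log2 difference of 1.25, and 1.14 in the RL cultures. The same differences were 1.26 and 1.20 for Ehf, 1.08 and 0.96 for Elf5, 0.78 and 0.95 for Socs2, and 0.75 and 0.48 for Stat5b. For Cish they were −0.75 and −0.42.

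Tumor 1 minus the mean of the others, in control cultures, had a median of 0.57 over the 10 genes and of −0.0025 over all genes. Among single genes its 5th and 95th percentiles were −0.58 and 0.64, and it was 1.15 for Ehf, 1.11 for Stat5a, 0.98 for Elf5 and −0.88 for Cish.

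**Figure D4:**
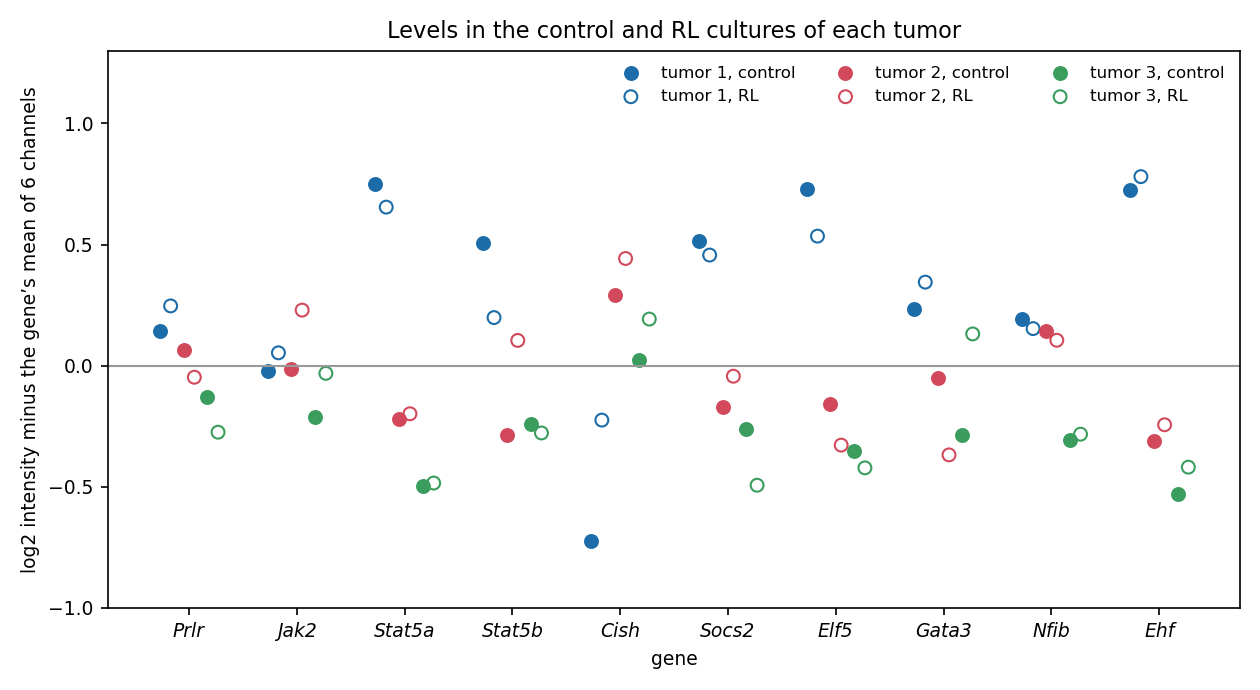
Normalized log2 intensity minus the gene's mean over the 6 channels (y axis, log2) for the 10 genes, with filled points for the control and open points for the RL culture of each tumor. Stat5a, Elf5 and Ehf are highest in tumor 1 in both kinds of culture, and Cish is lowest there in both.

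Of the 7 milk genes tested, 5 were also over 1.5-fold higher in the control culture of tumor 1 than in both others, and the median difference was 1.97. Lalba was 16.79, 12.65 and 10.12 in the control cultures of tumors 1, 2 and 3, and Csn1s1 was 15.33, 13.04 and 10.97, while Cel, with 8.42, 9.06 and 8.61, was lowest in tumor 1. Of 27 luminal and alveolar transcription factors outside the members, 5 were higher in tumor 1 by the same threshold and 0 lower, with a median difference of 0.05. Of 25 other JAK-STAT genes, 0 were higher and 1 lower (median −0.09), and of 16 Stat5 targets outside milk, 1 and 1 (−0.17). Of 14 signals of alveolar development, 0 were higher and 2 lower (−0.11), and of 10 RANK and NF-κB response genes, 0 and 3 (−0.45). Of 2 adipocyte markers, 0 were higher and 1 lower (−0.90). Markers of cell types also differed. Of 7 basal and myoepithelial markers tested (of 9), 4 were over 1.5-fold lower in the control culture of tumor 1 than in both others and 1 was higher, and the median difference was −1.08. Their summed log2 level was 15.45, 16.30 and 16.98 in control cultures and 15.60, 16.19 and 16.69 in RL cultures, with Krt14 the brightest, and Krt5 was 10.47, 12.88 and 12.80 in control cultures. Of 10 luminal markers, 1 was higher in tumor 1, the median difference was 0.24, and the summed log2 level was 18.42, 17.83 and 18.66 in control cultures, with Krt18 the brightest, and the RL cultures differed from these by −0.25, 0.17 and −0.37. That sum follows Krt18 (ratios −0.73, 0.43 and −0.70), its sign turns with the dye order, and Cldn7 turned the other way (0.36, −0.15 and 0.23). Of 8 myeloid markers, 2 were higher in tumor 1, Lyz2 and the brightest, Cd14 (14.13, 12.91 and 12.99 in control cultures). Itgam (12.21, 12.40 and 12.44) and Ptprc (6.16, 6.22 and 6.50) were lowest there, and the median difference was 0.29. The summed log2 level of the 8 was 14.64, 13.85 and 14.01 in control cultures and 15.03, 13.83 and 13.98 in RL cultures. Its rise with RL in tumor 1 follows Cd14 (ratio 0.56), while the median ratio of the myeloid list there was −0.10. Of 9 fibroblast markers 0 were higher or lower in tumor 1, but tumor 3 stood above the mean of the others by a median of 1.22, with summed log2 levels of 13.27, 12.22 and 14.21 in control cultures. All 10 luminal markers passed the filter on dim probes, so these cultures carried RNA of every luminal marker listed. All 9 fibroblast markers and 8 of 9 myeloid markers passed it too, so passing does not set luminal cells apart. In bulk cultures, fewer cells of a type and less RNA per cell cannot be told apart, and the part of cell types in these differences was not tested.

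Among 25 tested of 27 other JAK-STAT genes, limma called 0, with 1 higher and 1 lower at an unadjusted p under 0.05 and 0 by rank product. The dye-term fit called 2. Ghr, the growth hormone receptor, was lower (ratios −0.71, −0.29 and −0.14; mean −0.38; dye-term adjusted p 0.0207). Its other probe had a smaller mean, −0.17. Ptpn2, a phosphatase that acts on JAK proteins, was higher (0.20, 0.46 and 0.09; mean 0.25; dye-term adjusted p 0.0275). The means of its 3 probes ran from 0.15 to this 0.25. Of the 25, 3 were above 0 on all arrays and 2 below, with a median of 0.0055 that was below 0 when any 1 tumor was left out (−0.014 to −0.0097). Among 16 tested of 18 Stat5 targets outside milk, 0 were above 0 on all arrays and 2 below, with a median of −0.03, and of −0.014 without tumor 2. Limma and the rank product called 0 of these, with 0 higher and 1 lower at an unadjusted p under 0.05 by limma, and the dye-term fit called Id2 alone (−0.52, −0.28 and −0.18; mean −0.33; dye-term adjusted p 0.0272). Socs1 and Socs3 are in both lists.

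Of 7 milk genes tested of 9, 6 were below 0 on all arrays and the median was −0.47. It was −0.74 with the scanner's own processing, −0.62 with offset 10 and −0.37 to −0.68 when 1 tumor was left out. Limma called 3 and the rank product 4, the same 3 and Csn2. The 3 were Lalba (ratios −1.40, −1.87 and −1.24, adjusted p 0.0105), Wap (mean −1.01, adjusted p 0.0453) and Csn1s1 (mean −0.72, adjusted p 0.0453). None of the 3 passed the threshold with median centering, with no pairing by tumor or with the signals as processed by the scanner software, though each kept its sign. Wap and Csn1s1 also missed it without tumor 1, with the mean over probes and when the filter on dim probes was dropped or made stricter, and Csn1s1 without tumor 3. Csn1s2b, Csn3 and Cel passed no adjusted fit, and Cel was above 0 in tumor 1 (0.09). Csn2, whose promoter is printed beside that of Cish, had ratios of −0.41, −0.33 and −0.66, a mean of −0.47, with an adjusted p of 0.186 by limma and 0.00074 with the dye term. Among the tested milk genes with a promoter in the table, Csn1s1 and Csn2 hold the motif, and Lalba, Wap and Cel do not. The mean ratios of the signaling genes were −0.05 for Prlr, 0.17 for Jak2, −0.02 for Stat5a and 0.02 for Stat5b, and whether any member had a part in the lower RNA of Lalba, Wap and Csn1s1 was not tested.

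Of 27 tested of 29 other luminal and alveolar transcription factors, 3 were above 0 on all arrays and 5 below, with a median of −0.04 that was −0.084 without tumor 2. Limma called 0 of these, with 1 higher and 4 lower at an unadjusted p under 0.05, and the rank product called 2 lower, Xbp1 and Bhlha15. The dye-term fit called 4: Bhlha15 (−1.02, −0.77 and −0.28; mean −0.69; dye-term adjusted p 1.15e-05) and Xbp1 (−0.96, −0.43 and −0.15; mean −0.51; 0.00326), both factors of secretory cells, Id2 again, and Myb, which rose (0.36, 0.25 and 0.29; mean 0.30; 0.0405). Both means were below those of all 10 members. Among 14 tested of 16 signals of alveolar development, 2 were above 0 on all arrays and 2 below, with a median of −0.0059, which was −0.050 without tumor 1, 0.090 without tumor 2 and 0.0037 without tumor 3. Limma, its dye-term fit and the rank product called 0 of these, with 1 higher and 3 lower at an unadjusted p under 0.05. Among genes with 1 sign on all arrays, the highest means were 0.28 for Areg and 0.12 for Wnt4, and the lowest were −0.23 for Erbb3 and −0.18 for Notch3.

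RANK signaling turns on NF-κB, and the response list shows the size of change that RL gave in the same cultures. Of 10 tested of 11 genes, 9 were above 0 on all arrays, with a median of 0.52, and of 0.32 without tumor 1. Limma called 0 of them, with 9 higher at an unadjusted p under 0.05. The rank product called 4 (Nfkb2, Nfkbia, Nfkbie and Traf1) and the dye-term fit called 8: Nfkbia (mean 0.77), Nfkbie (0.75), Traf1 (0.70), Nfkb2 (0.63), Relb (0.55), Icam1 (0.49), Birc3 (0.44) and Tnfaip3 (0.35). Each of these 8 means was above the 0.27 of Cish, and the differences were not tested. The 8 were picked by a threshold that Cish did not pass, and that choice favors larger means. Outside the 8, Rela had a mean of 0.30 and Nfkb1 of 0.01, the latter below Cish and Jak2. Without tumor 1 the 8 ratios ran from 0.20 for Tnfaip3 to 0.48 for Traf1, with 0.25 for Relb, and Cish was 0.16. The medians over all 10 tested genes of the list were 0.93, 0.37 and 0.25 in tumors 1, 2 and 3.

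**Figure D5:**
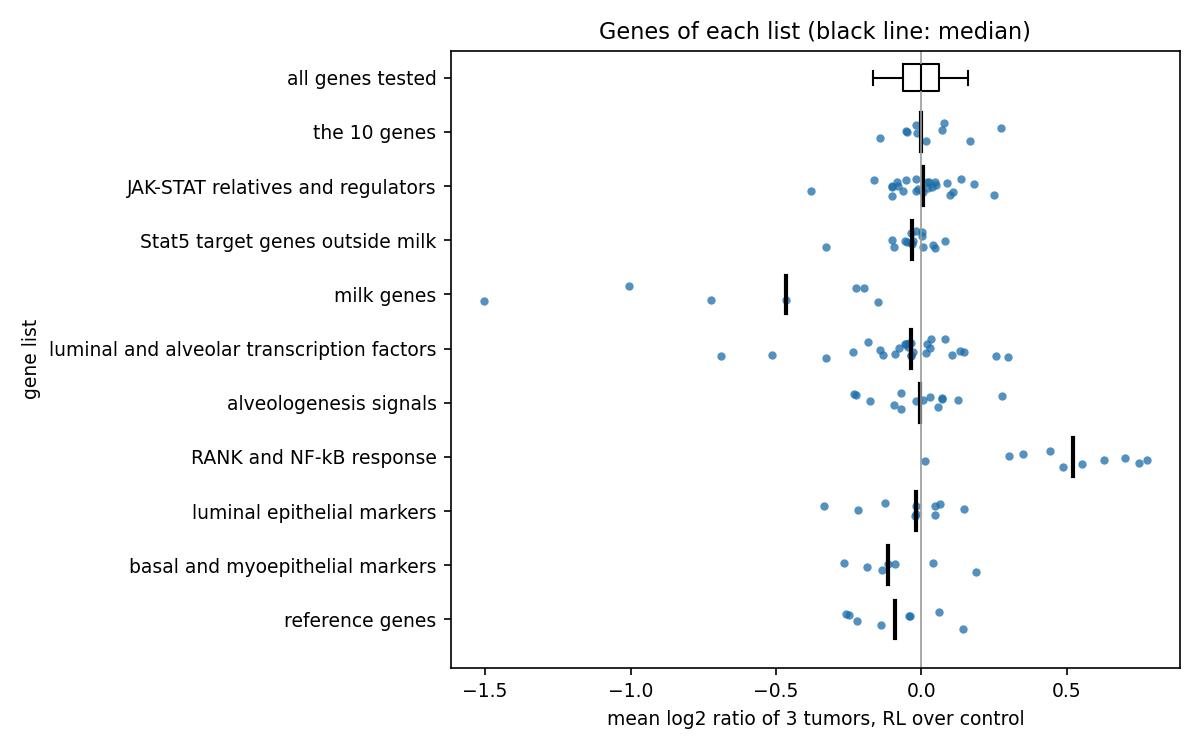
Mean log2 ratio of RL over control (log2) of each tested gene in the 10 members and the related lists, with the median of each list marked and a box for all genes (quartiles, whiskers at the 5th and 95th percentiles); luminal, basal and reference lists are included. The members have a median of −0.00037, the milk genes of −0.47 and the RANK and NF-κB response of 0.52.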

How the data were processed

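RNA from 3 pairs of PyMT tumor cultures, RL-treated and control, was hybridized on 3 arrays. The authors deposited the uncorrected median intensity of each spot and its local background in either dye (Agilent Feature Extraction 10.7.3.1), and the software's processed intensity, which is background-subtracted, detrended and dye-normalized. The authors also deposited normalized log2 ratios. These ran Cy5 over Cy3 on each array when set against the scanner values (Pearson's r across spots 0.885, 0.874 and 0.880). Their sign was therefore turned where RL was in Cy3. With the scanner software's own log2 ratios of RL over control, r was lower, at 0.624, 0.608 and 0.623. The files hold no mean spot intensities, so medians stand in for them.

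The computations ran in limma 3.58.1 under R 4.3.3: normexp with offset 50, intensity loess, spatial loess (span 0.1), Aquantile, outlier spots left out, spots of 1 probe averaged. The offset compresses ratios of dim genes. Probes were named through RefSeq accessions (28026 of 55681 probes). A gene was represented by its brightest probe among the 29431 that stood well above background in every RL channel or in every control channel, which gave 21743 genes, 21721 with a value on all 3 arrays. The log2 ratio of RL over control was fitted with lmFit and eBayes, with 6.65 prior and 2 residual degrees of freedom, and p-values were adjusted after Benjamini and Hochberg. The ratio pairs the cultures of a tumor, as the labels give them. The dye-term fit had 1 residual degree of freedom, so its p-values rest mostly on variance borrowed from all genes. The rank product used its exact null distribution. The programs were tested on simulated data.

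The genes named are the 10 members and, from each other list, the genes past the adjusted threshold in the limma fit with or without a dye term, otherwise the 2 largest rises and 2 largest falls among genes that moved the same way on all 3 arrays. The lists are other JAK-STAT genes, Stat5 targets outside milk, milk genes, luminal and alveolar transcription factors, signals of alveolar development, RANK and NF-κB response, markers of luminal, basal and myoepithelial, fibroblast, myeloid, T, endothelial and fat cells, and reference genes. The members and lists were chosen with earlier results of these data known. The alternatives were a dye term, a rank product, no background correction, an offset of 10, processed signals, no spatial loess, median centering, the mean over probes, a stricter filter on dim probes or none, no Aquantile, keeping outlier spots, the authors' ratios, an intensity trend, robust moderation, no pairing, each tumor left out, and an unadjusted p.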

Additional observations from a re-analysis of the deposited data

How the results depend on the processing

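The 39 genes followed over 20 alternatives gave 780 values. Of these, 684 kept their direction and their side of the threshold, 61 newly passed it, 18 no longer passed it and 17 changed sign. For the 10 members, 13 of 200 values changed sign and 3 passed a threshold (Cish and Jak2 at an unadjusted p, and Cish without replicate 2). Cish, Jak2, Elf5 and Prlr kept their sign under every alternative tried, but not their size: Cish ran from 0.16 to 0.34, Jak2 from 0.048 (median centering) to 0.23, Elf5 from −0.31 (median centering) to −0.12, and Prlr from −0.19 (median centering) to −0.0039 (without replicate 3). The cause was not tested for any change except where stated.

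Median centering in place of loess gave −0.12 for Stat5b, −0.085 for Gata3, −0.084 for Ehf, −0.075 for Trp63, −0.0049 for Lck and −0.055 for B2m, while all genes then had a median of −0.09. The mean over the probes of a gene gave −0.031 for Stat5b and −0.0016 for Trp63, and no background correction gave −0.0057 for Stat5b. The dye term gave −0.026 for Gata3. Nfib was 0.018 with the processed signals, 0.0040 with no spatial loess and 0.0079 with the authors' ratios. Leaving out 1 tumor gave a range of −0.040 to 0.017 for Stat5a (above 0 without replicate 1), −0.17 to 0.18 for Stat5b (below 0 without replicate 2), −0.15 to 0.034 for Socs2 (above 0 without replicate 3) and −0.10 to 0.27 for Gata3 (below 0 without replicate 3).

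Across all genes, 1 was called higher and 5 lower. Higher and lower counts were 123 and 162 with a dye term, 37 and 51 by rank product, 762 and 778 at an unadjusted p, 7 and 13 when eBayes was robust, 9 and 21 when it had an intensity trend, 6 and 11 with no background correction, and 4 and 10 with offset 10. They were 0 and 0 with the processed signals, with median centering and with no pairing by tumor. No filter on dim probes gave 0 and 3, all 6 channels well above background gave 0 and 3, the mean over probes gave 3 lower, and the authors' ratios gave 2 higher and 7 lower. Leaving out 1 tumor gave 0 to 561 higher and 1 to 921 lower, the most without replicate 2, when both arrays left have RL in Cy3.

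Of the members, 2 passed an unadjusted p, and 0 to 1 passed the adjusted threshold when 1 tumor was left out. Members above 0 on all arrays were 3, and 0 with median centering. Members below 0 on all arrays were 1, and 0 with median centering or no background correction, and 2 to 3 when 1 tumor was left out, where fewer arrays have to share a sign. The members' median was −0.14 with median centering, −0.025 with the mean over probes and −0.013 to 0.034 when 1 tumor was left out. The 5 members over 1.5-fold higher in the control culture of tumor 1 were 5 in number under all 10 alternatives that give levels. Members' spots were at least 5.90 times local background, which does not remove the dye order or differences between probes.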

Other observations

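RL over control was also summarized for marker lists of cell types and for reference genes. Limma, its dye-term fit and the rank product called 0 genes of any of these lists, and at an unadjusted p under 0.05 they held 1 gene each, lower, for luminal, fibroblast and myeloid markers and 0 for the rest. The median log2 ratio was −0.02 over 10 luminal markers, where Kit alone lay on 1 side of 0 on all arrays (mean −0.22). It was −0.12 over 7 tested of 9 basal and myoepithelial markers, where Trp63 alone lay above 0 on all arrays (0.04; −0.07 under median centering). Fibroblast markers had a median of −0.05 over 9 genes, and Pdgfra was below 0 on all arrays (−0.19). Myeloid markers had a median of −0.0014 over 8 tested of 9, and Cd68 (−0.23) and Fcgr3 (−0.19) were below 0 on all arrays. Of 8 T cell markers, 3 were tested (Cd3d, Cd3g, Cd8a, Cd8b1 and Cd2 did not pass the filter), with a median of 0.0023, and Lck was above 0 on all arrays (0.11; −0.0049 under median centering). Of 6 endothelial and 6 adipocyte markers, 2 each were tested, with medians of −0.0050 and 0.04. The 8 reference genes had a median of −0.09, and by tumor −0.31, 0.23 and −0.27, the sign turning with the dye order; B2m was above 0 on all arrays (0.14; −0.05 under median centering). Leaving out 1 tumor moved most of these medians: basal and myoepithelial markers from −0.21 to −0.017, fibroblast markers from −0.17 to 0.054, luminal markers from −0.11 to 0.070, myeloid markers from −0.063 to 0.011, and T cell markers from −0.024 to 0.016. The range was −0.025 to 0.017 for endothelial markers, 0.014 to 0.061 for adipocyte markers and −0.28 to 0.0036 for reference genes, so the sign of a median held only for basal and adipocyte markers.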
